A study of Ovis aries with 10 samples.

Results

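Exonic circular RNAs (circRNAs) with many junction reads relative to non-junction reads were examined in muscle samples of small-tailed Han sheep. A circRNA was a member when the deposited table lists exons as its feature, it had 20 or more junction reads summed over 10 libraries, and its junction sum was at least 0.5 times its non-junction sum. The rule chose 201 of the 2782 exonic circRNAs with 20 or more junction reads (7.23%) and of the 8721 circRNAs listed in the libraries (2.30%). The members were chosen by the junction and non-junction sums, so levels of the ratio are given as a description. Only 71 of the 201 had more junction than non-junction reads, and 128 had fewer. "Dominant over linear reads" is therefore not a measured property of most members, which are called high-ratio circRNAs here.

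A circRNA is formed when a downstream splice donor is joined to an upstream splice acceptor, so that the exons between them close into a ring. Reads over this back-splice junction come from the ring, and a ring has no free end for exonucleases to attack. Linear RNA of the same gene is spliced through the ends of the ring. Muscle is known to hold many circRNAs, some of which change as myoblasts differentiate. What the non-junction reads cover is stated in neither labels nor headers. If they were counted at both ends of a circRNA, 1 linear molecule could be counted at each end, and the ratio of 0.5 would then stand for as many circular as linear molecules.

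The study set 5 libraries of ovariectomized sheep (OR-STH) against 5 of sham-operated sheep (STH), both of the small-tailed Han breed, to look at the effect of estrogen on muscle. Both groups are labelled with the tissue longissimus dorsi, a muscle of the back. They also call the samples primary myoblasts and describe culture with estradiol, but no library carries an estradiol dose, and ages and the number of animals behind a library are not given. P-values therefore measure the spread between these libraries. Of 10 skeletal muscle fiber marker genes, 9 hosted a circRNA, and of 5 myoblast marker genes, 1 did. No fibroblast marker gene of 5 hosted one, while 4 of 5 endothelial, 1 of 4 adipocyte and 1 of 4 immune marker genes did. These counts of host genes do not measure expression of the markers, and they do not settle whether the samples were tissue or culture. In bulk samples, fewer cells of a type and less RNA per cell cannot be told apart.

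The OR-STH libraries held 39045 to 67061 junction reads, and the STH libraries held 35731 to 49887. They listed 165 to 186 of the members in OR-STH and 155 to 174 in STH. Replicate 5 of OR-STH had the most junction reads, but its 2688594 non-junction reads lay below the 3185053 of STH library 4. It stood apart in the ratio, as described with the ratio results.

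The 201 high-ratio circRNAs held 134285 of 445393 junction reads (30.1%), but 0.493% of all non-junction reads. Their median ratio was 0.833, against 0.0544 in the other 2581 exonic circRNAs with 20 or more reads. Both sums entered the rule, so their levels are a description as well. The median junction sum was 253 reads in members and 49 in the others, and the median non-junction sum was 244 reads in members and 1063 in the others. At least 2 junction reads per non-junction read were found for 22 members. Just inside the threshold lay the circRNAs of KATNIP with 32 junction and 64 non-junction reads, PCDH7 with 56 and 112, and CAMSAP1 with 288 and 576. Just outside lay those of KCTD9 with 489 junction and 982 non-junction reads, SPATA7 with 217 and 436, and PANK1 with 599 and 1204. The ratio of the KATNIP, PCDH7 and CAMSAP1 circRNAs was 0.5, and that of the KCTD9, SPATA7 and PANK1 circRNAs was 0.498, with no gap between members and non-members.

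**Figure D1:**
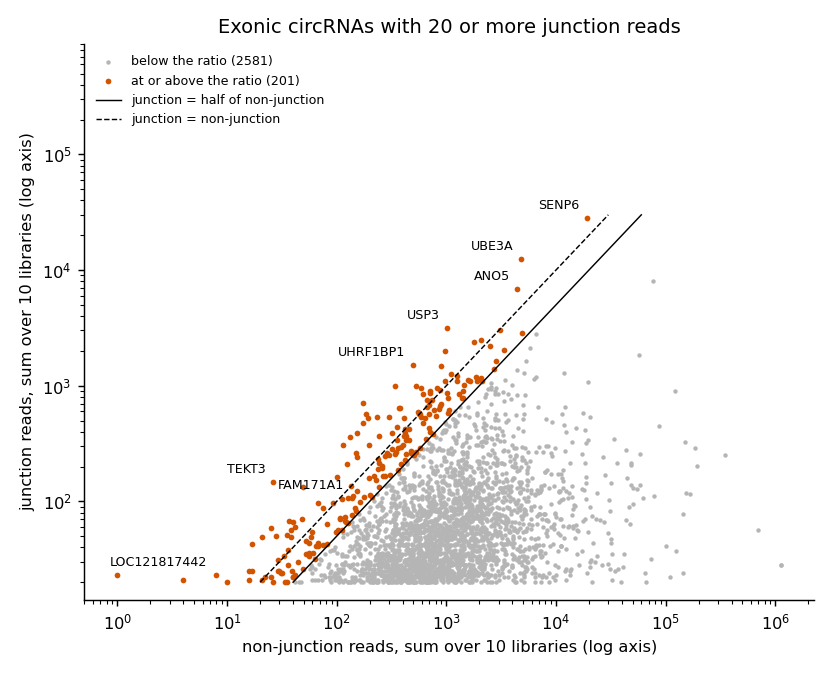
Junction reads against non-junction reads, both summed over 10 libraries on log axes, for the 2782 exonic circRNAs with 20 or more junction reads. The 201 high-ratio circRNAs (orange) lie on or above the solid line, where junction reads are 0.5 times non-junction reads, and 71 of them lie above the dashed line of equal reads.

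The members resembled the other exonic circRNAs in exon number and differed from them more in their place within the host gene. All comparisons in this paragraph are descriptions with no test. The median member was spliced from 3 exons and was 357 bases long, with quartiles of 296 and 444 bases. The others also had a median of 3 exons, with a median length of 325 bases and quartiles of 256 and 396 bases. The genomic span from end to end had a median of 5842 bases in members and 8067 bases in the others. By exon number, 27 members had 1 exon, 61 had 2, 56 had 3, 38 had 4 and 19 had 5 or more. The longest spliced members were those of UBE3A (2059 bases), SUN1 (782 bases) and MINDY3 (731 bases). The shortest were those of DSCC1 (51 bases), PSME3IP1 (65 bases) and CCDC30 (99 bases), each given with 1 exon. These 3 short ones belong to the 27 members whose ends did not both coincide with the ends of their listed exons, against 174 whose ends did.

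A high-ratio circRNA was usually the main circRNA of its gene. Ranks and shares within the host rest on junction reads, which the rule also used, so they are a description and not independent of it. It was the circRNA with the most junction reads of its host for 184 of 201 members (91.5%), against 57.4% of the others. It held at least 90% of the host's junction reads for 113 members (56.2%), against 21.3% of the others. For 65 members (32.3%) it was the sole circRNA listed for its host, against 14.6% of the others. The median share of the host's junction reads was 92.8% for members and 46.8% for the others. An end was shared with another listed exonic circRNA for 107 of 201 members (53.2%), against 66.0% of the others. Of the members, 120 were listed in all 10 libraries (59.7%), against 25.3% of the others. A higher read count by itself raises the chance of an entry in every library, and the part of depth in these shares was not tested.

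**Figure D2:**
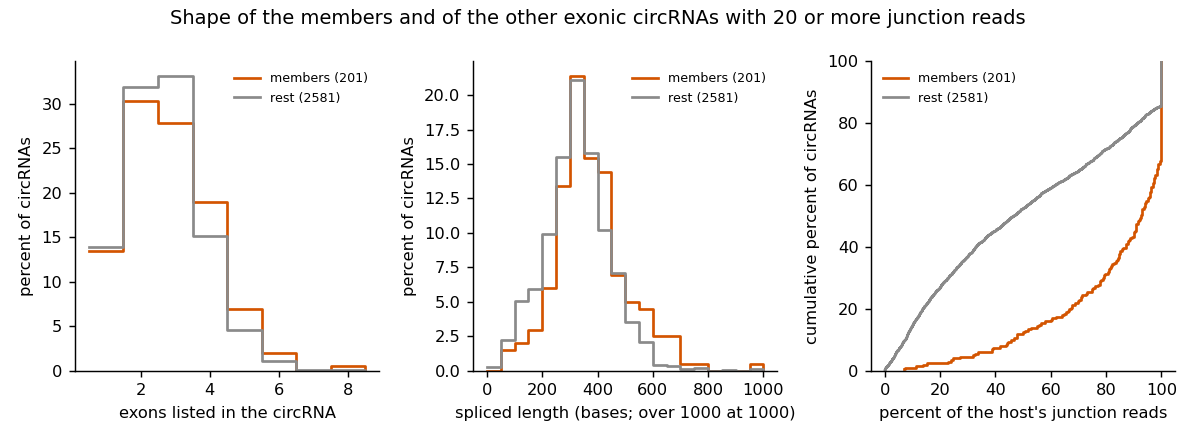
Exons per circRNA (left), spliced length in bases (middle) and cumulative share of the host's junction reads (right) for the 201 high-ratio circRNAs and the 2581 other exonic circRNAs with 20 or more junction reads. Exon number and length overlap broadly, while the share of the host's reads has a median of 92.8% in the high-ratio circRNAs and 46.8% in the others.

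The 201 members came from 188 host genes, of which 177 gave 1 member, 10 gave 2 and ADAM32 gave 4. The high ratio was not a property of every circRNA of these hosts. In 69 of the hosts, 153 other exonic circRNAs with 20 or more reads lay below the ratio, with a median ratio of 0.0746 and a median of 65 junction reads. ADAM32 encodes a protein of the ADAM family that is known for expression in testis in mouse and human. Its 4 members were its full set of listed circRNAs, on chromosome 26 and the plus strand. Of these, 3 shared the end at 33347621 and started at 33309150, 33334363 and 33346032, so they share exon sequence and are not independent. The fourth lay at 33389707 to 33408916. Their ratios ranged from 0.562 to 0.608 and their junction sums from 41 to 114 reads. By annotation, 192 members had a protein-coding host, 3 had a long noncoding RNA host and 6 had a host that was not found in the gene table.

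A few circRNAs held most of the reads. The first member by reads held 21.1% of all member junction reads, the first 3 held 35.4% and the first 12 held 51.7%. Proteins of the ubiquitin and SUMO systems, which tag other proteins for removal or change of function, were among the hosts of these 12. SENP6 encodes a protease that removes SUMO chains, UBE3A and HERC4 encode ubiquitin ligases, and USP3 encodes a deubiquitinase that acts on histones.

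The SENP6 circRNA (chromosome 8, 2532167 to 2535307, plus strand, 4 exons, 627 bases spliced) had the most junction reads. It had 2001, 1800 and 1659 junction reads in OR-STH libraries 1, 3 and 5, against 6172, 12107 and 4592 in STH libraries 1, 3 and 5. OR-STH libraries 2 and 4 and STH libraries 2 and 4 had no entry for it. Where it was listed, every OR-STH library lay below every STH library, and no other high-ratio circRNA was listed in exactly those 6 libraries. Its ratio averaged 1.38 ± 0.225 in OR-STH and 1.53 ± 0.0791 in STH (SD, n = 3 each). The limma voom fit with empty libraries at 0 gave a log2 fold change of -1.36 ± 4.52 (SE, adjusted p = 0.941).

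The UBE3A circRNA (chromosome 18, 1674006 to 1679847, minus strand, 4 exons) was the longest member and had 2.59 junction reads per non-junction read. It had 1369, 1186, 1149, 1989 and 2129 junction reads in OR-STH libraries 1 to 5, against 964, 772, 806, 1001 and 1043 in STH libraries 1 to 5. Its non-junction reads were 441, 529, 456, 677 and 374 in OR-STH, against 500, 400, 472, 530 and 405 in STH. In raw reads the OR-STH libraries all lay above the STH libraries for the junction, while the non-junction reads overlapped.

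ANO5 encodes anoctamin 5, a membrane protein of muscle whose loss causes limb-girdle muscular dystrophy in human. Its circRNA (chromosome 21, 20092929 to 20105675, minus strand, 5 exons, 532 bases spliced) had 534, 1000, 754, 727 and 1155 junction reads in OR-STH, against 508, 501, 526, 485 and 666 in STH. The groups overlapped, with 534 reads in OR-STH library 1 below 666 in STH library 5. Its ratio was 1.56 over all libraries.

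The USP3 circRNA (chromosome 7, 44675430 to 44679512, minus strand, 4 exons, 395 bases spliced) had 3182 junction and 1014 non-junction reads in all. GFM1 encodes a mitochondrial translation elongation factor, and its circRNA had 3036 junction and 3076 non-junction reads. STAU2 encodes a binding protein for double-stranded RNA, and its circRNA had 2829 junction and 4865 non-junction reads. The other 6 of the 12 were circRNAs of SNX13 (a sorting nexin), AIDA (a binding partner of axin), ARHGAP10 (a GTPase activating protein), LMO7 (a LIM domain protein that binds emerin), B3GALNT2 (a glycosyltransferase that acts on dystroglycan) and HERC4. Their junction sums ranged from 1635 reads for HERC4 to 2484 for SNX13, and their ratios from 0.575 for HERC4 to 2.06 for B3GALNT2.

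**Figure D3:**
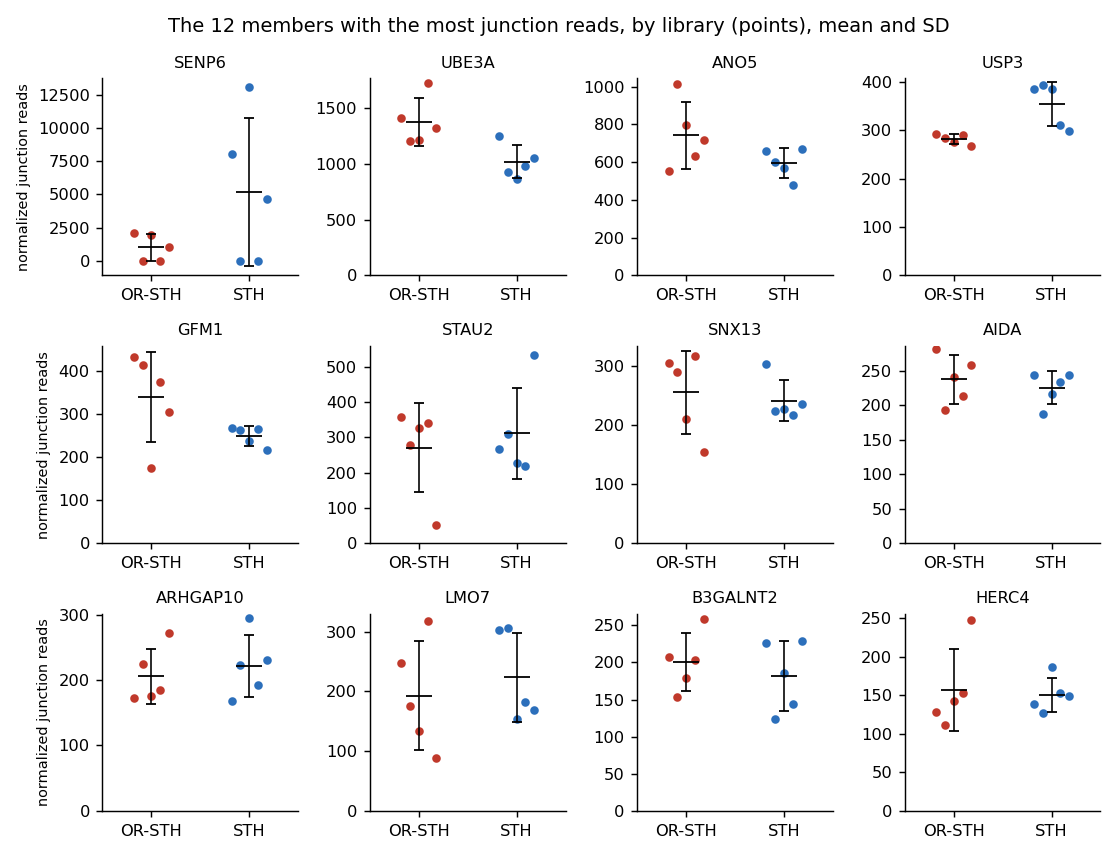
Normalized junction reads of the 12 high-ratio circRNAs with the most reads in OR-STH (left, red) and STH (right, blue) libraries 1 to 5, with the mean and SD as bars and each axis on its own linear scale. SENP6 libraries with no entry are drawn at 0. USP3 is the panel in which all OR-STH points lie below all STH points, and STAU2 has an OR-STH point at 50.8 and an STH point at 534.1.

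The highest ratios rested on few non-junction reads. The circRNA of LOC121817442 had 23 junction reads and 1 non-junction read in all. The circRNA of TEKT3, which encodes a tektin of sperm flagella and cilia, had 147 junction and 26 non-junction reads, a ratio of 5.65. The circRNA of LOC114109082 had 21 junction and 4 non-junction reads. Among the 12 highest, ratios backed by more than 100 non-junction reads were 4.08 for the long noncoding host LOC105605336, 3.14 for USP3, 3.05 for UHRF1BP1, 3.05 for the zinc finger gene ZNF532, 2.92 for the centrosomal gene CEP70, 2.77 for AAGAB and 2.76 for PTGDR, a receptor for prostaglandin D2. The remaining 2 were 2.88 for LOC121819875 with 23 junction reads and 2.73 for MCF2L2 with 134. The UHRF1BP1 circRNA was the only one listed for its host, and its ratio ranged from 1.67 to 6.26 across the libraries.

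Gene lists were used to look for members among known circRNA hosts and pathways, and most members were in none of the lists. Members are counted here out of the exonic circRNAs with 20 or more reads from the genes of a list, beside 7.23% over all such circRNAs, with no test. Hosts well described for circRNAs in human or mouse gave 6 members of 78 (7.69%): STAU2, LMO7, CAMSAP1, CCDC66, RIMS2 and CDYL. Genes of muscle structure and excitation gave 1 of 87 (1.15%), the ANO5 circRNA, and the median ratio over these 87 was 0.00374. The 10 fiber marker genes, which include titin and nebulin, gave 54 such circRNAs with a median ratio of 0.0026 and no member.

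Ubiquitin ligases and proteases gave 4 members of 77 (5.19%), RNA binding and splicing genes 2 of 44 (4.55%), chromatin genes 2 of 36 (5.56%) and kinases and phosphatases 2 of 44 (4.55%). The chromatin members were circRNAs of ARID2, a subunit of a chromatin remodeling complex, and HDAC9, a histone deacetylase. The kinase members were circRNAs of CDK13, which phosphorylates RNA polymerase, and MAP3K5, a stress-activated kinase. Myogenic regulators gave 1 of 14 (7.14%), the single-exon circRNA of IGF1R, the receptor for insulin-like growth factor. Centrosome, cilium and motor genes gave 5 of 33 (15.2%), which were CEP70, CAMSAP1, CCDC66, CEP128 and CEP112. Estrogen receptors and genes of the study gave 2 of 6 (33.3%), IGF1R and FAM171A1, and neither is an estrogen receptor. IGF1R is also counted under myogenic regulators, and FAM171A1 is named in the series title.

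The ratio of a given circRNA varied between libraries. Among the 120 members listed in all libraries, the highest library ratio was a median of 4.83 times the lowest, with quartiles of 3.19 and 8.66. The ratio was defined in every library for 118 of these 120, since it needs at least 1 non-junction read. A ratio of 0.5 or more was met in all 10 libraries by 44 members, and a ratio of 1 or more by 12. With the same rule applied to 1 group at a time, 204 circRNAs passed in OR-STH and 149 in STH. The 129 that passed in both were 63.2% of the OR-STH set and 86.6% of the STH set.

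The ratio also moved with the library as a whole. The median ratio over the 120 members was 0.850, 0.851, 0.943, 0.875 and 1.67 in OR-STH libraries 1 to 5, against 0.688, 0.644, 0.697, 0.969 and 0.942 in STH libraries 1 to 5. OR-STH library 5 was above all others. STH library 4 lay above OR-STH libraries 1 to 4, and STH library 5 lay within their range. Without OR-STH library 5, the rule chose 174 circRNAs. The highest ratio fell in OR-STH library 5 for 61 of the 120 members. The other circRNAs tested moved in the same way, with a median log2 ratio of -2.46 in OR-STH library 5 and of -3.40 to -3.17 in the other OR-STH libraries. The gap between the members' and the other circRNAs' median log2 ratio stayed between 2.85 and 3.29 in every library.

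**Figure D4:**
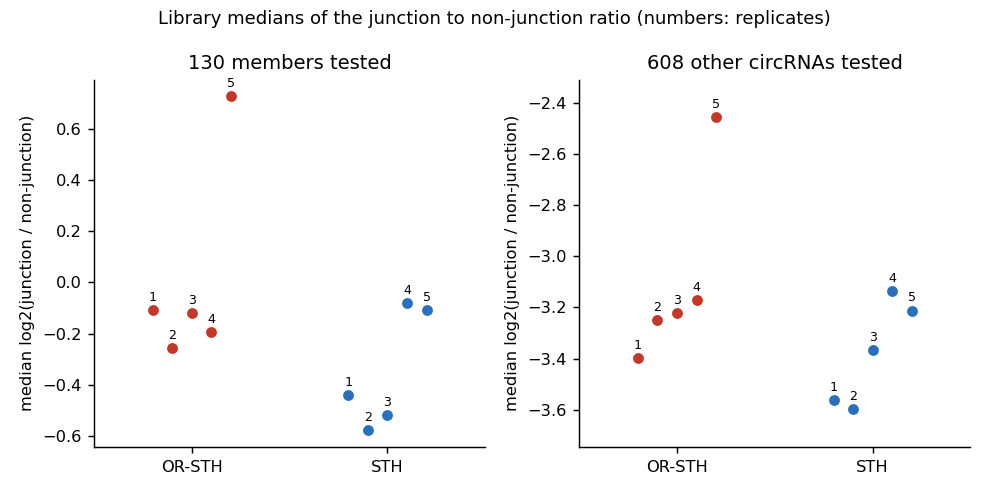
Median log2 ratio of junction to non-junction reads in each library for the 130 high-ratio circRNAs tested (left) and the 608 other circRNAs tested (right), with OR-STH in red, STH in blue and replicate numbers above the points. Both panels span the same number of log2 units, and OR-STH library 5 is the highest point in each, at 0.73 and -2.46.

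The first comparison asked whether junction reads of the high-ratio circRNAs differed after ovariectomy. No member changed past the threshold. Of the 130 members among 738 circRNAs tested with limma voom and Benjamini-Hochberg adjustment, 0 had an adjusted p under 0.05, as did 0% of all tested, and the smallest adjusted p was 0.208. At an unadjusted p under 0.05, 2 members were higher in OR-STH (1.22% of all tested were) and 4 were lower (4.47% of all tested were). The median log2 fold change was 0.02 over members and -0.04 over all tested, with 70 members higher (47.6% of all tested were) and 60 lower. The normalized reads of the groups did not overlap for 1 member above STH (0.542% of all tested) and 1 below (0.813%). The median SE of a member's log2 fold change was 0.31, so small differences were not detectable. With library totals alone as the scaling, the median of all circRNAs tested was 0.14 and that of members 0.18, and 7 members were then higher and 1 lower at an unadjusted p under 0.05.

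The smallest p belonged to the circRNA of LOC105605336, a long noncoding RNA gene on chromosome X (1937789 to 1945133, minus strand, 3 exons, 580 bases spliced). It had 100, 69, 91, 165 and 116 junction reads in OR-STH libraries 1 to 5, against 25, 34, 22, 61 and 31 in STH libraries 1 to 5. Every OR-STH library lay above every STH library. Normalized junction reads averaged 96.9 ± 29.6 in OR-STH and 37.7 ± 13.9 in STH (SD, n = 5 each). The log2 fold change was 1.35 ± 0.29 in the limma fit (SE, adjusted p = 0.208). Its non-junction reads were 29, 12, 9, 28 and 24 in OR-STH, against 13, 16, 12, 24 and 8 in STH, and overlapped. It passed the threshold where more low circRNAs were tested: with at least 5 libraries of 2 or more reads the adjusted p was 0.00258 in limma among 2690 tested, and without a filter it was 7.57e-05 among 8721. Over all alternatives of the limma fit it ranged from 7.57e-05 to 0.598.

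The UBE3A circRNA averaged 1376 ± 213 normalized junction reads in OR-STH and 1018 ± 149 in STH, a log2 fold change of 0.44 ± 0.14 in limma (SE, adjusted p = 0.781). After normalization 1207 in OR-STH library 2 lay below 1255 in STH library 1, so the groups overlapped. With the filter at 2 reads its adjusted p in limma was 1.2e-05, and over all alternatives it ranged from 1.2e-05 to 0.919. The USP3 circRNA had 283, 279, 262, 334 and 432 junction reads in OR-STH, against 296, 327, 357, 316 and 296 in STH. After normalization it had 268 to 292 in OR-STH and 299 to 393 in STH, with no overlap, and averaged 282 ± 10.0 and 355 ± 45.7 in these groups (SD, n = 5 each). The log2 fold change was -0.32 ± 0.15 in limma (SE, adjusted p = 0.781), and -0.16 with library totals alone as the scaling. The raw reads overlapped, and so did reads relative to library totals alone. The separation therefore depended on the trimmed mean of M values scaling used for the normalized reads.

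The other members with a small p were lower in OR-STH. The circRNA of TTC7B, part of a complex that anchors a phosphatidylinositol kinase at the plasma membrane, averaged 26.0 ± 9.98 normalized junction reads in OR-STH and 47.1 ± 11.6 in STH. The circRNA of TNS3, a tensin of focal adhesions, averaged 22.6 ± 10.2 in OR-STH and 39.4 ± 15.4 in STH. The circRNA of CNOT6L, a deadenylase that shortens messenger RNA tails, averaged 16.6 ± 5.22 in OR-STH and 26.2 ± 7.23 in STH (SD, n = 5 each for these circRNAs). Their log2 fold changes were -0.86, -0.87 and -0.71, with an adjusted p of 0.781 each in limma, and the groups overlapped for all of them. The other members named by this comparison, FANCM and DNMT3A, had positive estimates of 3.58 ± 1.84 and 1.88 ± 0.98 (SE). FANCM had no entry in STH libraries 2, 3 and 4, and its estimate ranged from -0.12 to 4.72 over the alternatives, with the negative value in the fit with a replicate block. DNMT3A had no entry in STH library 4, and without that library its estimate was 0.43, while OR-STH library 5 had 59.5 normalized reads against 13.4 to 24.3 in the other OR-STH libraries. Neither estimate gives a settled size, and that of FANCM gives no direction.

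**Figure D5:**
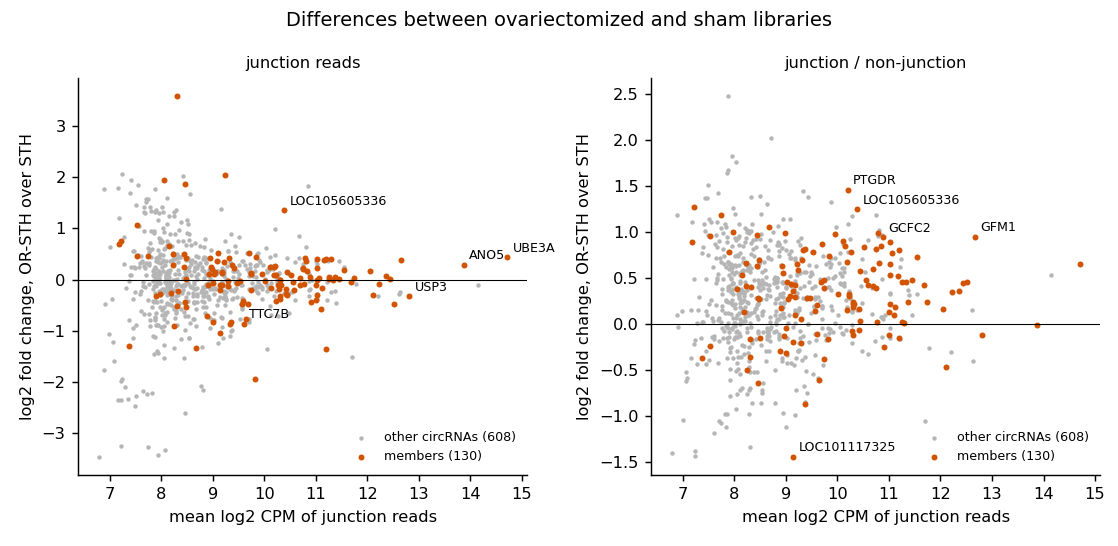
Log2 fold change of OR-STH over STH against mean log2 CPM of junction reads, for junction reads (left) and for the ratio of junction to non-junction reads (right), with the 130 high-ratio circRNAs in orange and the 608 others in grey. The members scatter around 0 for junction reads (median 0.02), while their ratios lie mostly above 0 (median 0.38), as do those of the other circRNAs.

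The second comparison took the non-junction reads at the same circRNAs. It was limited to circRNAs with an entry in all 10 libraries, since non-junction reads are given only with an entry. Of 602 tested, 1 had an adjusted p under 0.05 in limma voom (0.166%), and 0 of the 113 members did, with a smallest adjusted p of 0.0885. At an unadjusted p under 0.05, 4 members were higher in OR-STH (6.31% of all tested were) and 4 were lower (8.14% of all tested were). The estimate was above 0 for 50 members (46.7% of all tested). Groups did not overlap for 2 members above STH (0.831% of all tested) and 0 below (1.66%). STH library 4 decided this count: without it, 34 circRNAs and 4 members passed, namely those of AASS, ANO5, STAU2 and SLC30A7, with adjusted p from 0.0217 to 0.0473 in limma.

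AASS encodes the enzyme that starts lysine degradation. Non-junction reads at its circRNA were 126, 199, 146, 156 and 143 in OR-STH, against 93, 119, 87, 111 and 75 in STH. Every OR-STH library lay above every STH library, and normalized reads averaged 154 ± 24.9 in OR-STH and 96.8 ± 16.2 in STH, a log2 fold change of 0.66 ± 0.17 in limma (SE, adjusted p = 0.0885). TMLHE encodes the first enzyme of carnitine synthesis. Non-junction reads at its circRNA were 46, 38, 34, 39 and 40 in OR-STH, against 23, 31, 31, 29 and 8 in STH, again with no overlap, and the log2 fold change was 0.79 ± 0.32 in limma (SE, adjusted p = 0.247), or 0.51 without STH library 5. Non-junction reads at the ANO5 circRNA averaged 519 ± 92.7 in OR-STH and 353 ± 113 in STH, with a log2 fold change of 0.60 ± 0.20. Those at LMO7 had a log2 fold change of 0.48 ± 0.20 (SE).

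STAU2 had the smallest p of the lower members. Non-junction reads at its circRNA were 372, 450, 468, 367 and 323 in OR-STH, against 584, 540, 692, 515 and 554 in STH. The raw groups did not overlap, while after normalization 509.3 in OR-STH library 3 lay above 505.5 in STH library 2. The normalized mean was 397 ± 71.9 in OR-STH and 577 ± 56.8 in STH, a log2 fold change of -0.55 ± 0.15 in limma (SE, adjusted p = 0.0885). SLC30A7, which encodes a zinc transporter of the Golgi, TBC1D12, which encodes a protein with a Rab GTPase activating domain, and GCFC2, which encodes a factor of the intron lariat spliceosome, had log2 fold changes of -0.64, -0.57 and -0.52. The groups of these 3 overlapped. The GCFC2 value rested on OR-STH library 5, with 35.4 normalized reads against 89.2 to 105.2 in the other OR-STH libraries, and was -0.24 without it.

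The third comparison took the ratio of junction to non-junction reads within each library. The rule summed these same counts over both groups, so the members' differences are not independent of it. Of the 201 members, 12 had a ratio under 0.5 in the OR-STH sums and 29 in the STH sums. The counts of members below are therefore a description and are not read against those of all circRNAs. In limma, 1 of 738 circRNAs had an adjusted p under 0.05 (0.136%) and 0 of 130 members did, with a smallest adjusted p of 0.236. At an unadjusted p under 0.05, 15 members were higher in OR-STH (7.32% of all tested were) and 1 was lower (0.678% of all tested were). The estimate was above 0 for 102 of 130 members (78.5%) and for 72.2% of all tested, with a median log2 fold change of 0.38 in members and 0.29 in all. Ratios of the groups did not overlap for 3 members above STH (2.30% of all tested) and for 0 below (0.136%).

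This shift moved with the libraries described above. Without OR-STH library 5 the median was 0.14 in members and 0.13 in all tested, with 83 members higher and 42 lower. With each library centred on its median log ratio, the median was 0.07 in members, 71 were higher and 59 lower, and 5 were higher and 3 lower at an unadjusted p under 0.05. Non-junction reads over all listed circRNAs were 1889685 to 2878433 per library in OR-STH and 2471692 to 3185053 in STH, and their part in the shift was not tested.

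The LOC105605336 circRNA had ratios of 3.45, 5.75, 10.1, 5.89 and 4.83 in OR-STH, against 1.92, 2.13, 1.83, 2.54 and 3.88 in STH, a log2 fold change of 1.25 ± 0.36 in limma (SE, adjusted p = 0.236). Only 3.45 in OR-STH library 1 lay below the highest STH value. The GFM1 circRNA had ratios of 1.79, 1.23, 0.783, 1.41 and 1.52 in OR-STH, against 0.579, 0.616, 0.619, 0.862 and 0.717 in STH. Its OR-STH libraries lay above its STH libraries except for library 3, and the log2 fold change was 0.95 ± 0.28 in limma (SE, adjusted p = 0.236). The GCFC2 circRNA had 1.13, 0.991, 0.951, 1.11 and 2.09 in OR-STH, against 0.485, 0.584, 0.667, 0.512 and 0.945 in STH, with no overlap, and its log2 fold change was 0.95 ± 0.34 in limma (SE, adjusted p = 0.441).

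The PTGDR circRNA is a single exon of 335 bases. Its ratio averaged 6.76 ± 5.14 in OR-STH and 2.02 ± 0.953 in STH (SD, n = 5 each), with 4 to 24 non-junction reads per library in OR-STH and 12 to 31 in STH. The groups overlapped, and the log2 fold change was 1.46 ± 0.43 in limma (SE, adjusted p = 0.236). The lowest estimate belonged to LOC101117325, a protein-coding gene with no other listed circRNA, at -1.44 ± 0.53 (SE). Its junction reads were 29, 3, 20, 25 and 44 in OR-STH, against 17, 45, 22, 49 and 40 in STH, so that OR-STH library 2 alone had under 10, and the estimate was -0.95 without it. The next smallest p among members with a negative estimate belonged to the LMO7, HMGCLL1 and FUT10 circRNAs, with -0.46, -0.64 and -0.61, at adjusted p from 0.642 to 0.670 in limma. The LMO7 value was -0.30 without STH library 2. The FUT10 value was -0.40 without OR-STH library 2, -0.32 without OR-STH library 3 and -0.33 without STH library 5.

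FAM171A1, the host named in the series title, gave 1 member (chromosome 13, 29185543 to 29191802, minus strand, 2 exons, 321 bases spliced). The host had 3 listed circRNAs, and this one held 82.3% of their junction reads. Which of them is the circRNA of the title was not settled, since the labels give no ID or coordinates for that one. It had 4, 8, 18, 12 and 31 junction reads in OR-STH, against 5, 5, 11, 10 and 3 in STH. Its non-junction reads were 20, 13, 8, 11 and 17 in OR-STH, against 9, 22, 16, 8 and 13 in STH. Both overlapped, and it had too few reads for the fits. Its ratio averaged 1.20 ± 0.843 in OR-STH and 0.590 ± 0.420 in STH (SD, n = 5 each). The difference of 0.84 on the log2 scale gave p = 0.302 in a two-sided exact permutation test over 252 relabellings, whose smallest possible p is 0.00794. It was 1.35 without OR-STH library 1, 0.53 without OR-STH library 3 and 0.54 with each library centred on its median log ratio.

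The authors' deposited table gives its own comparison of junction reads, with adjusted p-values over the circRNAs it lists. In the authors' deposited table, 4 members were higher in OR-STH at an unadjusted p under 0.05 (0.539% of 8721 circRNAs were) and 4 were lower (0.814% were). All members had 20 or more junction reads, while the 8721 include circRNAs with fewer. The counts of members are therefore not read against these shares. At an adjusted p under 0.05 the authors' deposited table has 1 circRNA in all (0.0115%), and it is the LOC105605336 member, with an adjusted p of 0.0142. Another 3 higher members in the authors' deposited table were those of MAP3K5, TMTC2 and DSCC1, and the lower ones were TTC7B, TNS3, NHLRC3 and 1 of the ADAM32 circRNAs. TMTC2 and NHLRC3 were named here after their values were seen. For the UBE3A and USP3 circRNAs the comparison in the authors' deposited table gives an adjusted p of 0.966 each. The DSCC1 circRNA was listed in OR-STH libraries 1, 3 and 5 with 14, 8 and 27 reads and in no STH library. The MAP3K5 circRNA had 10, 6, 12, 17 and 25 reads in OR-STH, against 4, 5 and 9 in STH libraries 1, 4 and 5. For DSCC1 and MAP3K5 the STH reads alone would not have met the read minimum of the rule. Their place among the higher members is therefore a description and not independent of the rule.

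Some members had no entry in several libraries, and those of them with the most junction reads are given here, besides SENP6. The RC3H2 circRNA, from a gene for an RNA-binding ubiquitin ligase of the Roquin family, had 262 and 436 junction reads in OR-STH libraries 1 and 5 and none listed in OR-STH libraries 2, 3 and 4. In STH it had 307, 214, 237 and 31 reads in libraries 1, 3, 4 and 5 and no entry in library 2. The FANCM circRNA, from a gene of DNA crosslink repair, had 70, 50, 92, 41 and 34 reads in OR-STH, against 46 and 92 in STH libraries 1 and 5 and no entry in the other STH libraries. The circRNA of LOC114116088 had no entry in OR-STH library 4 and in STH libraries 1 and 5, and that of LOC105607506 had none in 5 libraries. These 2 had 215 and 72 junction reads in all, below the median member. For the empty libraries the deposited table gives no non-junction reads either.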

How the data were processed

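Junction and non-junction reads of circRNAs were taken for 5 OR-STH and 5 STH libraries, grouped by their titles. The authors' deposited profile packs whole-number counts per circRNA into lists, per the file headers, with spliced length as a further number (a score of length in bases). Per the submitters' processing notes HISAT2 was used, and no label or header names the caller, build or annotation. Another 10 sample names in the lists were not used. A second deposited table holds the normalized signal means, log2 fold changes and p-values of the authors, per the file headers. Starts are counted from 1, and chromosomes come from host genes in the ARS-UI_Ramb_v3.0 table.

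A library without an entry was entered as 0 junction reads. Counts were fitted with limma voom (limma 3.58.1, statmod 1.5.0, R 4.3.3), with group as the only term, trimmed mean of M values scaling (30% of log ratios and 5% of abundances trimmed), robust variances and Benjamini-Hochberg adjustment over all circRNAs tested. A circRNA was tested with at least 5 libraries at 10 reads scaled to the median library and a total of at least 15. For normalized reads, counts were divided by each library's scaled size over the geometric mean of these sizes. Ratios were log2((junction + 0.5)/(non-junction + 0.5)) with a limma trend, and empty libraries were left as missing. In a change from the plan, the non-junction fit was limited to circRNAs listed in every library. The functions were tested on simulated counts. Alternatives covered scaling, filters, variance model, pseudocount, a replicate block and each library left out. PCR duplicates are not marked, and depth limits cover counting error only.

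The members and gene lists were chosen with earlier results of these data known. Named are the 12 members with most reads and with the highest ratio, the 4 with the smallest p per fit and direction, the extremes of length, those nearest the limit, hosts with 3 or more members, list members, and the 5 most abundant members missing in 3 or more libraries.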

Additional observations from a re-analysis of the deposited data

Results flagged for a closer look

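Of 112 groups of 4 or 5 library values tested, 9 held a library far from the others, and chance alone flags about 1 in 20. The median ratio of junction to non-junction reads over members in OR-STH library 5 was 1.67, against 0.850 to 0.943 in the other OR-STH libraries. In the same library the GCFC2 ratio was 2.09, against 0.951 to 1.13 in the other OR-STH libraries. Normalized junction reads of the STAU2 circRNA were 50.8 in OR-STH library 5, against 278 to 359 in the others of its group. Those of the DNMT3A circRNA were 59.5 there, against 13.4 to 24.3.

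In STH, the STAU2 circRNA had 534 normalized junction reads in library 5, against 220 to 309 in the others of its group. STH library 1 was high for the circRNAs of SNX13 (304.5, against 218 to 236), CEP70 (138, against 73.8 to 91.9) and PTGDR (57.3, against 42.0 to 45.3). The PTGDR ratio was 3.67 in the same library, against 1.26 to 1.91.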

How the results depend on the processing

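Of 388 alternative values of single circRNAs, 378 kept their direction and their side of the threshold, 9 passed the threshold newly, and 1 turned its direction. The main counts past an adjusted p of 0.05 were 0 for junction reads, 1 for non-junction reads and 1 for the ratio, with 0 members in each. For junction reads the filter at 2 reads gave 4 circRNAs and 2 members, and no filter gave 30 circRNAs and 3 members, LOC105605336, USP3 (adjusted p = 7.17e-09 in limma) and 1 more. The adjusted p of USP3 was 0.781 in the main limma fit and reached 0.919 over the alternatives. For non-junction reads either filter gave 2 circRNAs. Leaving out each library gave 0 to 34 circRNAs and 0 to 4 members for non-junction reads, with the highest counts without STH library 4, and 0 to 2 circRNAs for the ratio. A limit of as many junction as non-junction reads left 73 members, and the number of members was 174 without OR-STH library 5. The share of junction reads in members averaged 28.0% in OR-STH and 32.1% in STH, and 26.2% and 24.5% in these groups without the SENP6 circRNA. Centring each library was added after the data were seen. Except where the filter or fewer libraries changed what was tested, the cause was not tested.

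Replicate numbers were shared by the groups, but same-numbered libraries did not deviate together in every pair, with correlations of -0.12 to 0.19 for junction reads. With the replicate number as a block, junction reads gave 3 circRNAs and 2 members, and non-junction reads and the ratio gave 0 circRNAs each. In that fit the FANCM estimate turned to -0.12 (adjusted p = 0.983 in limma).

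Depth limits the members with few reads: 71 of 201 were not tested, and ratios over fewer than 10 non-junction reads in a library change severalfold with single reads.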

Other observations

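Members with no entry numbered 15 to 36 per library in OR-STH and 27 to 46 in STH, with the fewest in OR-STH library 5, which had the most junction reads.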
